A study of Ciona robusta with 7 samples.

Results

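The ion channel genes of the table were chosen by their names: 94 of 15231 genes carried a name starting with the letters of a potassium, sodium, calcium, HCN, chloride, TRP, polycystin, IP3 receptor, nicotinic, GABA or glutamate receptor family. CACNA1C and KCNJ12, which also matched, were left out. The families held 22 KCN, 1 SCN, 2 HCN, 6 CACN, 5 CLCN, 18 TRP, 14 PKD, 1 ITPR, 6 CHRN, 6 GABR and 13 GRI genes. Some members share the letters without being pores. GRIP/1/2 and GRID2IP are named after scaffold proteins, GRINA after a membrane protein of another family, PKDCC after a kinase and TRPC4AP after an adaptor. KCNIP1/2/3/4, the KCNMB genes, CACNB1/2, CACNG1 and the CACNA2D genes are named after accessory subunits, and PKD1 and PKDREJ after large polycystin-1-like receptors. Names are the table's own orthologue-style names, and where several genes share one the gene model ID stands beside it.

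The cells came from stage 38 juveniles of the tunicate Ciona robusta, raised at 18 °C, and were sorted as Mesp-positive, a gene of the progenitors that give rise to both heart and pharyngeal muscle. Libraries labelled SMART-seq2 were made from single cells on 7 plates, numbered 2 to 8, and their counts are of reads. All plates carry the same labels, with no treatment or genotype contrast, so the comparisons are between cell classes within plates. The labels do not say how many juveniles were pooled or whether plates came from separate sorts. The p-values measure how class differences varied from plate to plate, a spread that may be technical.

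Channels set how a muscle is excited. In vertebrates, nicotinic receptors at the neuromuscular junction depolarise skeletal muscle, sodium and calcium channels carry the action potential, and potassium channels end it, with the ERG channel (KCNH2) and KCNQ1 prominent in the heart. IP3 receptors release calcium from internal stores. Tunicate hearts beat myogenically, while the siphon and body wall muscles are driven by motor nerves.

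Cells were taken to be the 315 of 672 barcodes with 1000 or more genes detected, which held 98.2% of 84728369 reads. Clustering without any channel gene gave 7 clusters. Cluster 4, with 33 cells, was called heart muscle-like, and clusters 6 and 7, with 25 cells each, pharyngeal muscle-like. The 232 other cells, named outside cells here, were 75 cells of cluster 2, which carried markers of non-muscle heart mesoderm, 48 cells of cluster 3, 28 cells of cluster 5 and 81 cells of cluster 1. Clusters 1 and 5 were EBF-positive, and cluster 3 is left unnamed because neural, ciliated and gut markers were mixed in it. The 6 heart muscle markers summed to 18200 CPM (counts scaled to 1000000 reads) in heart muscle-like cells, 105 CPM in pharyngeal muscle-like cells and 348 CPM in outside cells. The 4 sarcomere markers summed to 56095, 63271 and 3608 CPM in the same order. Outside cells were not free of muscle transcripts, since cluster 2 had 1221 CPM of heart muscle markers and 7680 CPM of sarcomere markers, while clusters 5 and 1 had 6012 and 1127 CPM of the sarcomere markers. Heart muscle-like cells also carried 2031 CPM over 8 claudin genes, most of it from 1 gene, against 57.6 CPM in pharyngeal muscle-like cells and 772 CPM in outside cells. The 4 gut markers summed to 1810, 74.0 and 414 CPM in the same order. Most of the heart muscle-like sum came from ANXA13/7, at 1652 CPM, with 154 CPM from APOB. The FABP1/6 genes on that list had 3.42 and 0 CPM there. The part of these transcripts in the channel results was not tested. A cell had a median of 101038 reads in the heart muscle-like class, 184275.5 in the pharyngeal muscle-like class and 151254.5 outside. All 96 barcode sequences were used on every plate, and 395 pairs of kept cells on different plates shared one; their expression correlated at a median of 0.556, against 0.550 for pairs with different barcodes, and no 2 columns were identical.

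At least 1 read in kept cells was found for 90 of the 94 genes, and at least 100 reads for 64. KCNQ3, 2 genes named PKD1L2 (KH.C1.369 and KH.C2.1084) and PKD2 (KH.C3.377) had none. Channel genes together held 102553 reads, or 1232 CPM of all reads. Over plates, their sum averaged 2894 ± 605 CPM in heart muscle-like cells (SD, n = 3), 1769 ± 528 CPM in pharyngeal muscle-like cells (SD, n = 4) and 914 ± 111 CPM in outside cells (SD, n = 4). Every plate sum of either muscle class, from 1059 CPM up, lay above every pooled outside sum, of which the highest was 1038 CPM. Single outside clusters were not all lower. Clusters 2 and 3 lay at 943 to 1747 and 937 to 1949 CPM, and clusters 5 and 1 at 522 to 1065 and 464 to 894 CPM. Cluster 6, one of the 2 pharyngeal muscle-like clusters, reached 3574 to 4223 CPM on its 2 plates, above the 2226 to 3406 CPM of heart muscle-like sums and the 817 to 1262 CPM of cluster 7.

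**Figure D1:**
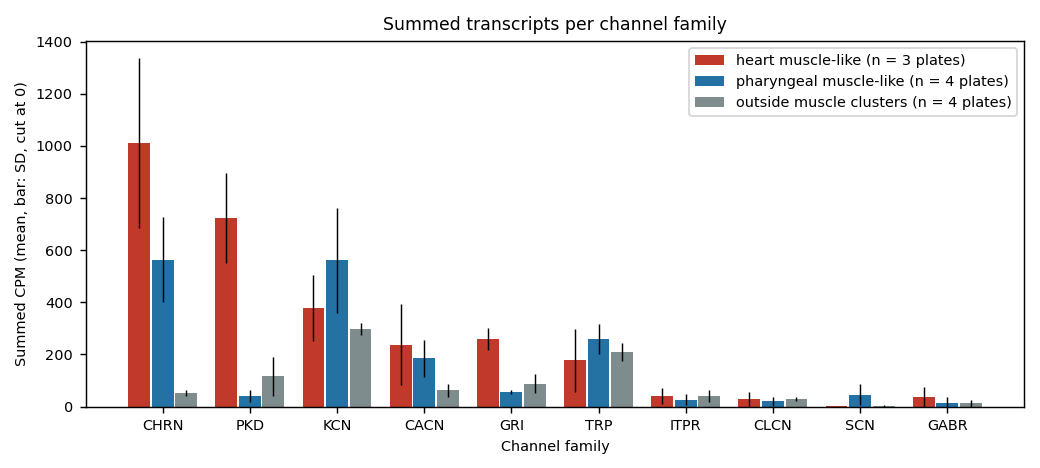
Summed level of channel families in CPM, as the mean over plates with SD (bars of SD end at 0), for heart muscle-like (3 plates), pharyngeal muscle-like (4 plates) and outside cells (4 plates). Nicotinic receptor genes averaged 1011, 564 and 51.3 CPM in that order, and polycystin genes 725, 39.0 and 117 CPM.

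For testing, reads were summed per plate and class wherever a class had at least 5 cells on a plate with at least 2 such classes, which gave heart muscle-like sums on plates 4, 5 and 7 and pharyngeal muscle-like and outside sums on plates 2, 4, 5 and 7. Values per plate follow that order. Heart muscle-like sums were the shallowest, at 585948, 603359 and 2258682 reads, against 2207011 to 4556280 reads in pharyngeal muscle-like sums and 2517458 to 20715276 reads in outside sums. edgeR's quasi-likelihood test with plate as a block was fitted over all genes, with Benjamini-Hochberg adjustment over the 9173 genes tested and a threshold of 0.05. The filter on low counts kept 48 channel genes and left out 46. Clusters were drawn from other genes of the same cells, so the classes are not independent of expression at large. Channel genes were left out of the clustering, but genes whose levels go with theirs were not. The channel genes' p-values are thus not free of this double use of the same cells. The comparisons of the 2 muscle classes with outside cells share the outside sums, so their values are given side by side.

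Of the 48 channel genes, 5 passed in heart muscle-like cells against outside cells, 4 higher and 1 lower, where 3.96% of all tested genes passed, 1.34% higher and 2.62% lower. In pharyngeal muscle-like cells against outside cells 8 passed, 6 higher and 2 lower, where 2.37% of all genes passed, 1.48% higher and 0.883% lower. Between the muscle classes 7 passed, 3 higher and 4 lower in heart muscle-like cells, where 6.36% of all genes passed, 2.1% higher and 4.25% lower. The channel genes' shares were 10.4%, 16.7% and 14.6% in the same order. The median log2 difference of the 48 genes was −0.45 in the first comparison, 0.44 in the second and −1.56 in the third, beside −1.18, −0.45 and −0.70 over all tested genes. With genes at 0 reads on one side placed at their bound, the third median was −0.82 and the other 2 did not move. DESeq2 size factors in place of TMM moved the all-gene medians to −0.94, −0.56 and −0.36. Leaving out plate 4 or plate 5 each reduced the first count to 3, and leaving out plate 5 reduced the third to 4.

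**Figure D2:**
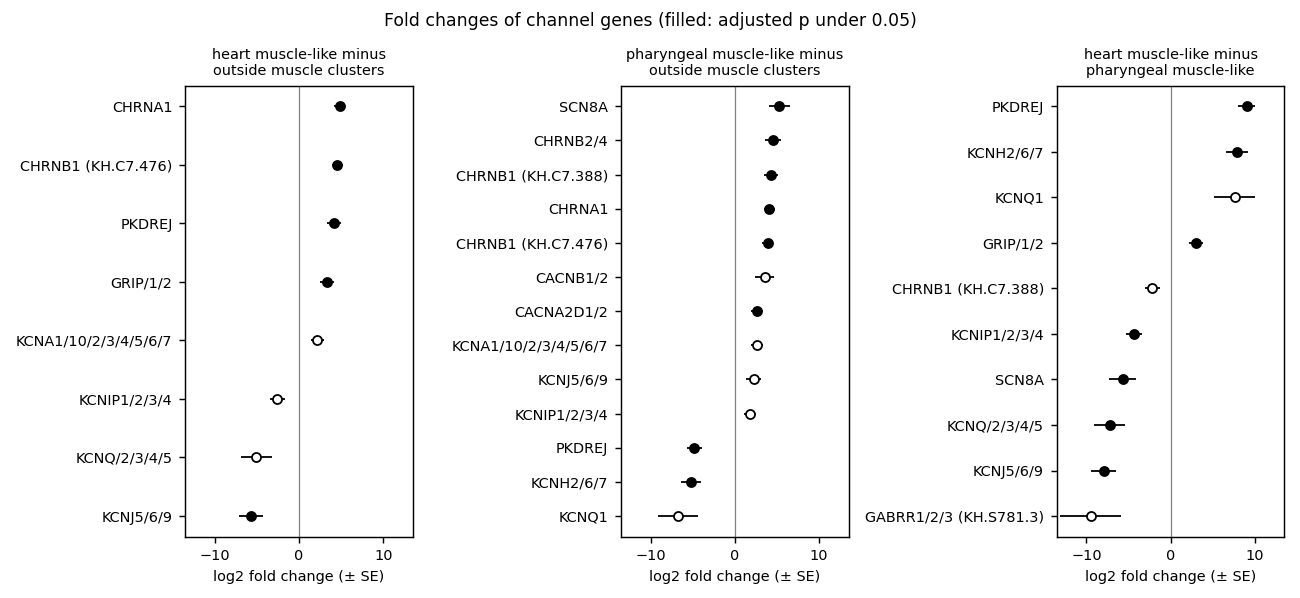
Log2 difference with its standard error for the named channel genes in heart muscle-like minus outside cells, pharyngeal muscle-like minus outside cells, and heart muscle-like minus pharyngeal muscle-like cells, from edgeR's quasi-likelihood fit. Filled points passed an adjusted p of 0.05, and CHRNA1 at 4.86 and 4.09 lay above 0 in both comparisons with outside cells.

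Of the 6 nicotinic receptor genes 4 were tested, and all 4 passed as higher in at least 1 muscle class than outside. Over all tested genes, 1.34% passed as higher in heart muscle-like cells and 1.48% in pharyngeal muscle-like cells. CHRNA1, named after the alpha subunit of the vertebrate muscle receptor, had 584, 454 and 1045 CPM in heart muscle-like sums, 247, 211, 372 and 89.6 CPM in pharyngeal muscle-like sums and 11.9, 40.4, 11.1 and 26.6 CPM in outside sums. Every muscle sum lay above every outside sum, and every heart muscle-like sum above every pharyngeal muscle-like one. This order holds for the pooled classes. Cluster 6 alone had 498 and 510 CPM on plates 4 and 5, lower than heart muscle-like cells on plate 4 and higher on plate 5. Cluster 7 had 134, 251 and 42.8 CPM on plates 4, 5 and 7, and outside cluster 5 had 99.2 CPM on plate 4. Its log2 difference from outside cells was 4.86 ± 0.66 in heart muscle-like cells (SE, edgeR adjusted p = 4.24e-05) and 4.09 ± 0.63 in pharyngeal muscle-like cells (SE, edgeR adjusted p = 0.000176), and it passed in both under every alternative run. The difference between the muscle classes did not pass. Reads of CHRNA1 were found in 72.7% of heart muscle-like cells, 84.0% of pharyngeal muscle-like cells and 33.6% of outside cells.

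Among genes named after the beta subunit of the muscle receptor, the copy KH.C7.476 had 198, 318 and 186 CPM in heart muscle-like sums, 111, 106, 109 and 60.5 CPM in pharyngeal muscle-like sums and 7.15, 13.04, 11.4 and 6.36 CPM in outside sums. It was higher by 4.57 ± 0.69 in heart muscle-like cells (log2, SE, edgeR adjusted p = 0.000175) and by 3.90 ± 0.65 in pharyngeal muscle-like cells (log2, SE, edgeR adjusted p = 0.00039) than outside. The other copy, CHRNB1 (KH.C7.388), had 25.6, 14.9 and 99.6 CPM in heart muscle-like sums, 124, 99.9, 150 and 137 CPM in pharyngeal muscle-like sums and 21.1, 10.7, 5.02 and 5.93 CPM in outside sums. Only the pharyngeal muscle-like difference from outside cells passed for this copy, at 4.34 ± 0.83 (log2, SE, edgeR adjusted p = 0.00223). CHRNB2/4, named after beta subunits of vertebrate neuronal receptors, had 0, 53.0 and 56.2 CPM in heart muscle-like sums, 127, 126, 119 and 65.6 CPM in pharyngeal muscle-like sums and 11.9, 3.58, 9.99 and 8.33 CPM in outside sums. It was higher in pharyngeal muscle-like cells than outside by 4.50 ± 0.96 (log2, SE, edgeR adjusted p = 0.00728). Heart muscle-like minus pharyngeal muscle-like differences did not pass for either of these, at −2.19 ± 0.88 (log2, SE) for CHRNB1 (KH.C7.388). CHRNA3/6 and CHRNA3 had 20 and 4 reads in all cells.

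Within the pharyngeal muscle-like class, the nicotinic genes had higher levels in cluster 6, with 133066 CPM of sarcomere markers, than in cluster 7, with 41978 CPM, a difference that was not tested. CHRNA1 had 487 CPM in cluster 6 and 120 CPM in cluster 7, CHRNB1 (KH.C7.388) 289 and 57.1 CPM, and CHRNB2/4 275 and 35.6 CPM in the same order. With cluster 7 alone as the pharyngeal muscle-like class, which was chosen after the data were seen, the count of channel genes that passed against outside cells was 2 in place of 8, and those were CHRNA1 and PKDREJ. CHRNB1 (KH.C7.388), CHRNB1 (KH.C7.476) and CHRNB2/4 then had edgeR adjusted p-values of 0.279, 0.187 and 0.423.

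**Figure D3:**
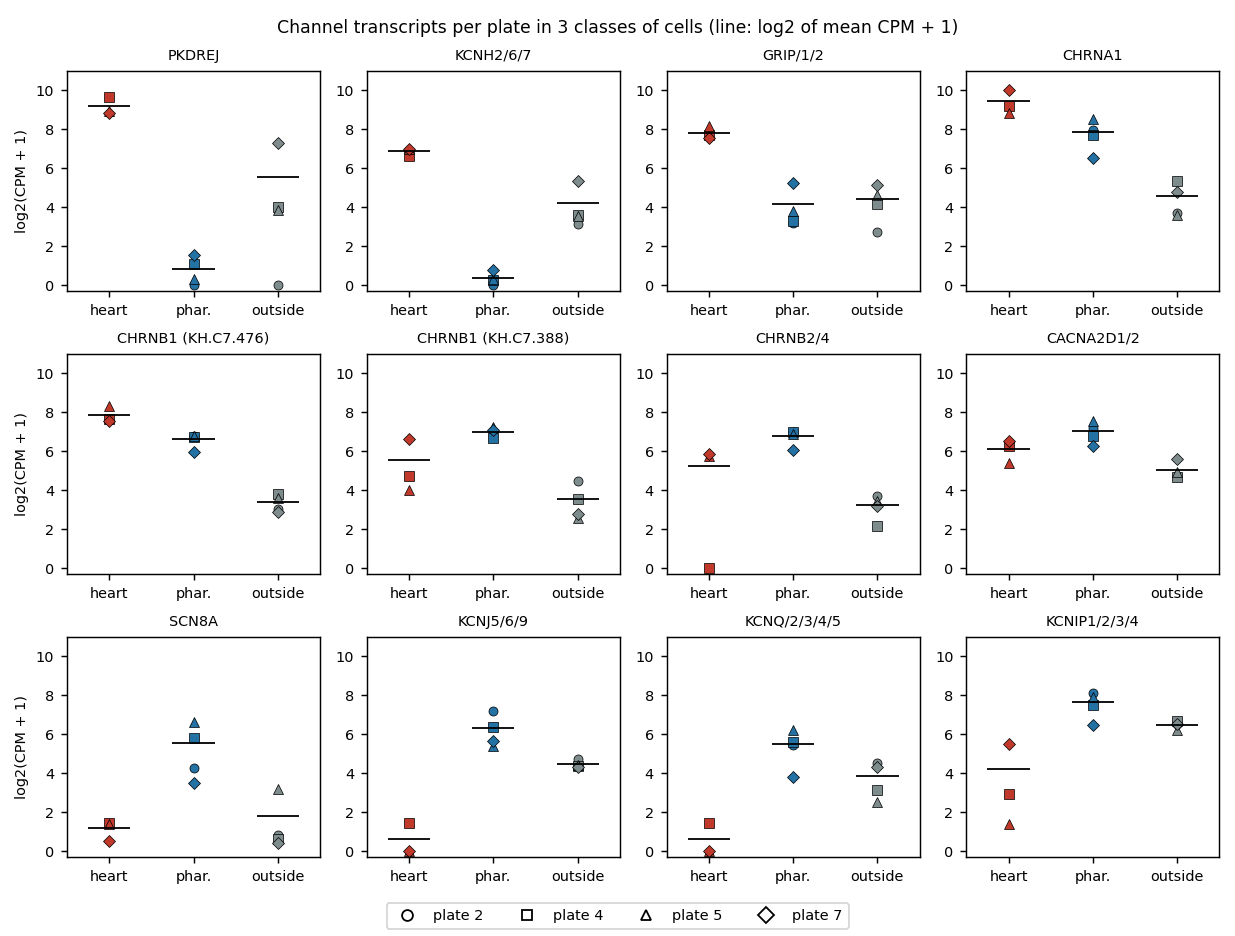
Level in CPM of 12 channel genes in each plate sum of heart muscle-like (plates 4, 5 and 7), pharyngeal muscle-like and outside cells (plates 2, 4, 5 and 7). CHRNA1 lay at 454 to 1045 CPM in heart muscle-like sums and at 11.1 to 40.4 CPM in outside sums, while KCNJ5/6/9 was at 0 to 1.71 CPM in heart muscle-like sums and at 41.3 to 144 CPM in pharyngeal muscle-like sums.

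The single sodium channel gene, SCN8A, is named after a pore subunit that carries the upstroke of vertebrate action potentials. Its level was highest in the pharyngeal muscle-like class, mostly through cluster 6. It had 1.71, 1.66 and 0.443 CPM in heart muscle-like sums, 18.1, 56.0, 98.8 and 10.3 CPM in pharyngeal muscle-like sums and 0.794, 0.561, 8.16 and 0.353 CPM in outside sums. The pharyngeal muscle-like sums lay above all other class sums. The log2 difference was 5.28 ± 1.27 against outside cells (SE, edgeR adjusted p = 0.0202) and that of heart muscle-like minus pharyngeal muscle-like cells −5.70 ± 1.574 (SE, edgeR adjusted p = 0.0281). Heart muscle-like cells held 3 SCN8A reads, so the pooled level in pharyngeal muscle-like cells was 51.5 times theirs with an exact 95% counting interval of 17.5 to 250. Most of the pharyngeal muscle-like reads lay in cluster 6, at 127 CPM, with 10.4 CPM in cluster 7. Per plate, cluster 7 had 30.0, 9.07 and 0 CPM on plates 4, 5 and 7, while outside cluster 3 had 0.287, 15.4 and 46.6 CPM on plates 4, 5 and 6. With cluster 7 alone as the pharyngeal muscle-like class, both calls ended, at edgeR adjusted p-values of 0.9996 against outside cells and 0.635 between muscle classes. Leaving out plate 2, 4 or 5 ended the call against outside cells, with edgeR adjusted p-values of 0.0959, 0.112 and 0.165, and leaving out plate 4 or 5 ended that between muscle classes, at 0.106 and 0.271.

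The calcium channel members seen in muscle were mainly accessory subunits, with the pore gene CACNA1C left out of the members; it averaged 15.5 ± 11.6 CPM in heart muscle-like sums (SD, n = 3), 136 ± 92.8 CPM in pharyngeal muscle-like sums (SD, n = 4) and 4.06 ± 2.30 CPM in outside sums (SD, n = 4). CACNA2D1/2, named after the alpha-2-delta subunit that helps channels reach the membrane, had 75.1, 41.4 and 90.8 CPM in heart muscle-like sums, 148, 109, 188 and 77.4 CPM in pharyngeal muscle-like sums and 25.4, 24.6, 29.2 and 47.9 CPM in outside sums. Pharyngeal muscle-like sums all lay above outside sums, with a log2 difference of 2.66 ± 0.68 (SE, edgeR adjusted p = 0.0341). That call ended without plate 2, 4 or 5, at edgeR adjusted p-values of 0.227, 0.0691 and 0.181. It also ended with cluster 7 alone as the pharyngeal muscle-like class, at an edgeR adjusted p of 0.430. Adjustment over genes not used for clustering ended it at 0.0753. Other clusterings ended it too, at 0.0522 with resolution 0.5, 0.105 with 1000 variable genes and 10 components, and 0.0910 with channel genes kept. In all, 8 of 19 alternatives ended this call. CACNB1/2, named after the cytoplasmic beta subunit, had 42.7, 16.6 and 31.4 CPM in heart muscle-like sums, 34.4, 29.2, 85.7 and 39.9 CPM in pharyngeal muscle-like sums and 0.794, 8.20, 8.16 and 14.9 CPM in outside sums. These ranges did not overlap between either muscle class and outside cells, but the pharyngeal muscle-like difference of 3.54 ± 1.10 (log2, SE) did not pass at an edgeR adjusted p of 0.109. Within the pharyngeal muscle-like class, cluster 6 had 107 and 172 CPM on plates 4 and 5. Cluster 7 had 8.34, 10.5 and 18.5 CPM on plates 4, 5 and 7, which overlapped with the outside sums. Outside cluster 2 had 27.8, 22.6, 8.61 and 17.3 CPM on plates 3, 4, 5 and 7, which overlapped with the heart muscle-like sums. CACNG1, named after the gamma subunit of the vertebrate skeletal muscle channel, lay at 19.9 to 120 CPM in heart muscle-like sums, 2.88 to 10.1 CPM in pharyngeal muscle-like sums and 0.397 to 10.3 CPM in outside sums. Its difference of 3.59 ± 1.34 in heart muscle-like cells from outside cells (log2, SE) did not pass at an edgeR adjusted p of 0.136.

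The pore gene CACNA1H, named after a T-type channel that opens at low voltage, was hardly seen in muscle. It had 0 reads in heart muscle-like cells, 6 reads in pharyngeal muscle-like cells and 1004 reads in outside cells, so the pooled level was at least 23.1-fold lower in heart muscle-like cells than outside, against a floor of 3 reads over the class. In outside sums it had 0, 6.17, 21.2 and 24.4 CPM, and the class differences did not pass. CACNA1A, named after a P/Q-type pore, had 120 reads in 2 heart muscle-like cells, 4 reads in pharyngeal muscle-like cells and 100 reads in outside cells. CACNA2D3/4 had 28 reads in all.

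Of the 14 potassium channel genes tested, 4 passed between the 2 muscle classes, where 6.36% of all genes passed. KCNH2/6/7, named after the ERG channels, had 99.0, 128 and 127 CPM in heart muscle-like sums, 0, 0.219, 0.255 and 0.721 CPM in pharyngeal muscle-like sums and 7.94, 11.3, 10.7 and 40.1 CPM in outside sums. The 3 ranges did not overlap, with outside cells between the muscle classes. The heart muscle-like minus pharyngeal muscle-like log2 difference was 7.91 ± 1.31 (SE, edgeR adjusted p = 0.000273), and it passed under every alternative run. Pharyngeal muscle-like minus outside cells gave −5.23 ± 1.17 (log2, SE, edgeR adjusted p = 0.0111), and leaving out plate 7 ended that call at 0.0902. Heart muscle-like minus outside cells, at 2.68 ± 1.12 (log2, SE), did not pass at an edgeR adjusted p of 0.170, and most outside reads lay in cluster 2, which had 979 of 1141. Reads of KCNH2/6/7 were found in 60.6% of heart muscle-like cells, 12.0% of pharyngeal muscle-like cells and 22.8% of outside cells.

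KCNJ5/6/9, named after G protein-activated inward rectifiers, ran the other way. It had 1.71, 0 and 0 CPM in heart muscle-like sums, 144, 81.6, 41.3 and 49.0 CPM in pharyngeal muscle-like sums and 25.4, 19.98, 20.6 and 19.3 CPM in outside sums. The log2 difference of heart muscle-like cells was −7.96 ± 1.47 from pharyngeal muscle-like cells (SE, edgeR adjusted p = 0.000909) and −5.72 ± 1.42 from outside cells (SE, edgeR adjusted p = 0.0208). Heart muscle-like cells held 1 read of it, so these fitted values depend on the prior count. By pooled reads the pharyngeal muscle-like level was 263 times that of heart muscle-like cells, with an exact 95% counting interval of 47.0 to 10379, and the heart muscle-like level lay below the outside level by a ratio of 92.7 (16.6 to 3664). Leaving out plate 2, 5 or 7 ended the call against outside cells, at edgeR adjusted p-values of 0.0679, 0.0668 and 0.0906. Cluster 6 had 249 and 66.4 CPM on plates 4 and 5, and cluster 7 had 37.0, 19.6 and 39.6 CPM on plates 4, 5 and 7. With cluster 7 alone as the pharyngeal muscle-like class, the call between muscle classes ended at an edgeR adjusted p of 0.0616. Pharyngeal muscle-like sums lay above all outside sums, but that difference of 2.24 ± 0.86 (log2, SE) did not pass at an edgeR adjusted p of 0.240.

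KCNQ/2/3/4/5, named after the slow M-current channels, had 1.71, 0 and 0 CPM in heart muscle-like sums, 43.0, 47.6, 74.0 and 12.97 CPM in pharyngeal muscle-like sums and 21.8, 7.92, 4.73 and 19.3 CPM in outside sums. Heart muscle-like sums lay below all others. Their difference from pharyngeal muscle-like cells was −7.25 ± 1.84 (log2, SE, edgeR adjusted p = 0.0156), and leaving out plate 5 ended the call at 0.111. The call also ended with cluster 7 alone as the pharyngeal muscle-like class, at an edgeR adjusted p of 0.234. With 1 read in heart muscle-like cells, the pooled pharyngeal muscle-like level was 201 times theirs with an exact 95% counting interval of 36.0 to 7944. KCNQ1, named after the cardiac slow delayed rectifier, had 76.8, 0 and 14.6 CPM in heart muscle-like sums, 0, 0.219, 0 and 0 CPM in pharyngeal muscle-like sums and 4.77, 1.54, 2.12 and 10.2 CPM in outside sums. Its 78 heart muscle-like reads came from 3 cells, and the difference of 7.596 ± 2.45 between muscle classes (log2, SE) did not pass at an edgeR adjusted p of 0.068.

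KCNIP1/2/3/4, named after calcium-sensing partners of fast potassium channels, was the channel-family gene with most reads, 10224 in kept cells. It had 6.83, 1.66 and 44.7 CPM in heart muscle-like sums, 280, 181, 241 and 88.2 CPM in pharyngeal muscle-like sums and 91.0, 102, 74.5 and 91.5 CPM in outside sums. Heart muscle-like cells stood below both other classes on every plate. The difference was −4.37 ± 0.97 from pharyngeal muscle-like cells (log2, SE, edgeR adjusted p = 0.00546). That from outside cells, −2.59 ± 0.89 (log2, SE), did not pass at an edgeR adjusted p of 0.105. With cluster 7 alone as the pharyngeal muscle-like class, the call between muscle classes ended at an edgeR adjusted p of 0.0909. KCND1/2/3, the family its vertebrate namesake binds, had 0 reads in heart muscle-like cells, 62 reads in pharyngeal muscle-like cells and 62 reads in outside cells.

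KCNA1/10/2/3/4/5/6/7, named after Shaker-type delayed rectifiers, was seen in both muscle classes. It had 125, 79.6 and 174 CPM in heart muscle-like sums, 72.0, 133, 150 and 46.6 CPM in pharyngeal muscle-like sums and 25.8, 21.9, 13.9 and 42.6 CPM in outside sums. Neither muscle class overlapped with the pooled outside sums. By cluster they did overlap, since outside cluster 2 had 167, 59.5, 27.4 and 64.0 CPM on plates 3, 4, 5 and 7. Cluster 6 had 385 and 179 CPM on plates 4 and 5, and cluster 7 had 65.3, 125 and 28.4 CPM on plates 4, 5 and 7. The differences of 2.16 ± 0.76 for heart muscle-like cells and 2.60 ± 0.73 for pharyngeal muscle-like cells (log2, SE) did not pass, at edgeR adjusted p-values of 0.118 and 0.0612. Under the alternatives the first came to pass in 2 of 17 and the second in 9 of 19.

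KCNJ12/14/18/2/4, named after strong inward rectifiers that hold the resting potential, had 25.6, 23.2 and 21.7 CPM in heart muscle-like sums, 72.9, 74.4, 104 and 15.6 CPM in pharyngeal muscle-like sums and 40.1, 36.0, 25.6 and 31.2 CPM in outside sums, and no class difference passed. KCNMA1, named after the large calcium-activated channel, had 0, 1.66 and 43.8 CPM in heart muscle-like sums, 19.5, 11.9, 35.7 and 28.8 CPM in pharyngeal muscle-like sums and 14.3, 17.6, 17.2 and 19.8 CPM in outside sums. Nearly all of its heart muscle-like reads were on plate 7. KCNK10/2/4 (KH.C10.531), named after a 2-pore leak channel, had 46.1, 0 and 35.0 CPM in heart muscle-like sums, 0, 32.04, 12.8 and 0 CPM in pharyngeal muscle-like sums and 13.9, 28.7, 29.6 and 12.9 CPM in outside sums.

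Of 5 chloride channel genes 3 were tested, and edgeR called 0 in a class comparison, with 1 at an unadjusted p under 0.05, while DESeq2's Wald test called 2. Over all tested genes, edgeR called 3.96% in heart muscle-like and 2.37% in pharyngeal muscle-like against outside cells, and 6.36% between the muscle classes. CLCN1/2, whose namesake CLCN1 sets the resting conductance of mammalian skeletal muscle, had 1.71, 0 and 0 CPM in heart muscle-like sums, 4.98, 16.2, 25.01 and 0.721 CPM in pharyngeal muscle-like sums and 5.96, 4.98, 12.99 and 20.8 CPM in outside sums. The 2 reads in heart muscle-like cells put the pooled outside level at 24.9 times theirs, with an exact 95% counting interval of 6.87 to 206, and no class difference passed. CLCN6, named after an endosomal exchanger, had 0, 0 and 19.9 CPM in heart muscle-like sums, 4.08, 12.5, 5.87 and 0 CPM in pharyngeal muscle-like sums and 12.3, 9.61, 2.46 and 9.46 CPM in outside sums, so its heart muscle-like reads were on plate 7 alone.

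Of the 8 TRP channel genes tested, edgeR called 0 in a class comparison, with 2 at an unadjusted p under 0.05, and DESeq2's Wald test called 2. The edgeR shares over all tested genes are those given beside the chloride channels. TRPV5/6, named after calcium-selective epithelial channels, had 130, 41.4 and 140 CPM in heart muscle-like sums, 165, 102, 59.96 and 106 CPM in pharyngeal muscle-like sums and 98.9, 81.5, 126 and 44.6 CPM in outside sums, with overlap between all classes. TRPA1 (KH.L142.2), named after an irritant-gated channel, had 3.41, 0 and 41.6 CPM in heart muscle-like sums, 57.1, 119, 31.9 and 36.0 CPM in pharyngeal muscle-like sums and 53.6, 45.1, 26.7 and 24.1 CPM in outside sums. The adaptor TRPC4AP had 0, 0 and 34.5 CPM in heart muscle-like sums, 3.62, 13.2, 18.9 and 8.41 CPM in pharyngeal muscle-like sums and 2.78, 12.41, 28.1 and 15.7 CPM in outside sums, again with heart muscle-like reads on plate 7 alone.

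In the polycystin family, 1 gene set heart muscle-like cells apart. PKDREJ, whose vertebrate namesake is a polycystin-1-like protein known from testis and sperm, had 804, 487 and 460 CPM in heart muscle-like sums, 0, 1.10, 0.255 and 1.92 CPM in pharyngeal muscle-like sums and 0, 15.1, 13.3 and 156 CPM in outside sums. Heart muscle-like sums lay far above all others, and the pharyngeal muscle-like and outside ranges overlapped, with 0 in both on plate 2 and lower pharyngeal muscle-like values on the other 3 plates. The log2 difference was 9.01 ± 1.01 for heart muscle-like minus pharyngeal muscle-like cells (SE, edgeR adjusted p = 1.57e-06), and it passed under every alternative run. It was 4.19 ± 0.85 for heart muscle-like minus outside cells (SE, edgeR adjusted p = 0.0043) and −4.82 ± 0.87 for pharyngeal muscle-like minus outside cells (SE, edgeR adjusted p = 0.00137). Leaving out plate 4 ended the first of these at an adjusted p of 0.0721, keeping only cells with 2000 or more genes at 0.383, and fitting without the plate block at 0.0872. The second ended with cells thinned to 20000 reads, at 0.139. Cluster 2 held 2604 of the 2768 outside reads, and leaving it out of the outside cells, an alternative chosen after the data were seen, raised the heart muscle-like difference to 8.26 ± 1.29 (log2, SE) and the count of channel genes that passed to 9. PKDREJ reads were found in 75.8% of heart muscle-like cells, 14.0% of pharyngeal muscle-like cells and 22.8% of outside cells.

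PKD2 (KH.C9.319), named after the polycystin-2 cation channel, had 70.0, 44.7 and 141 CPM in heart muscle-like sums, 1.36, 38.6, 21.9 and 10.3 CPM in pharyngeal muscle-like sums and 9.93, 21.9, 31.3 and 23.9 CPM in outside sums. The heart muscle-like sums lay above all other class sums, but no class difference passed. By cluster, such levels were not particular to heart muscle-like cells. Cluster 6 had 78.3 and 46.6 CPM on plates 4 and 5, and outside cluster 3 had 23.5, 46.0 and 211 CPM on plates 4, 5 and 6. PKD1 had 25.1 CPM in heart muscle-like cells, 5.25 CPM in pharyngeal muscle-like cells and 23.4 CPM in outside cells. PKD1L3 had 399 reads, 398 of them in 1 cell of cluster 3.

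The IP3 receptor gene ITPR1/2/3 had 58.0, 3.31 and 57.1 CPM in heart muscle-like sums, 10.4, 55.3, 26.3 and 9.61 CPM in pharyngeal muscle-like sums and 9.53, 54.7, 61.1 and 39.8 CPM in outside sums. All 3 ranges overlapped, and neither edgeR, even at an unadjusted p under 0.05, nor DESeq2's Wald test called it in a class comparison.

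GABRR1/2/3 (KH.S781.3), named after the rho subunits of chloride-conducting receptors, had 0 CPM in heart muscle-like sums, 0, 0.219, 49.5 and 6.25 CPM in pharyngeal muscle-like sums and 0, 7.08, 5.65 and 3.18 CPM in outside sums, and no class difference passed with edgeR. GABRD had 394 reads, all but 2 of them in outside cells.

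Ionotropic glutamate receptor genes were sparse, and GRIA2, named after an AMPA receptor subunit, had 0 reads in both muscle classes and 208 in 4 outside cells. The member of this name group that passed was the scaffold gene GRIP/1/2, whose vertebrate namesakes bind AMPA receptors. It had 205, 288 and 184 CPM in heart muscle-like sums, 8.16, 8.78, 13.3 and 37.5 CPM in pharyngeal muscle-like sums and 5.56, 16.9, 23.8 and 34.9 CPM in outside sums. Heart muscle-like sums all lay above the others, by 3.34 ± 0.81 from outside cells (log2, SE, edgeR adjusted p = 0.0168) and 3.02 ± 0.85 from pharyngeal muscle-like cells (log2, SE, edgeR adjusted p = 0.0307). Leaving out plate 4 or 5 ended both calls, at edgeR adjusted p-values of 0.0887 and 0.0869 for the first and 0.183 and 0.165 for the second. In all, 6 of 17 alternatives ended the first and 7 of 18 the second. With cluster 6 alone as the pharyngeal muscle-like class the second ended at 0.472, and with cells of 2000 or more genes at 0.458. Cluster 6 had 35.5 and 26.3 CPM on plates 4 and 5, and cluster 7 had 1.67, 1.91 and 26.7 CPM on plates 4, 5 and 7. GRINA was spread over all classes, with 30.8 CPM in heart muscle-like cells, 29.5 CPM in pharyngeal muscle-like cells and 55.2 CPM in outside cells.

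**Figure D4:**
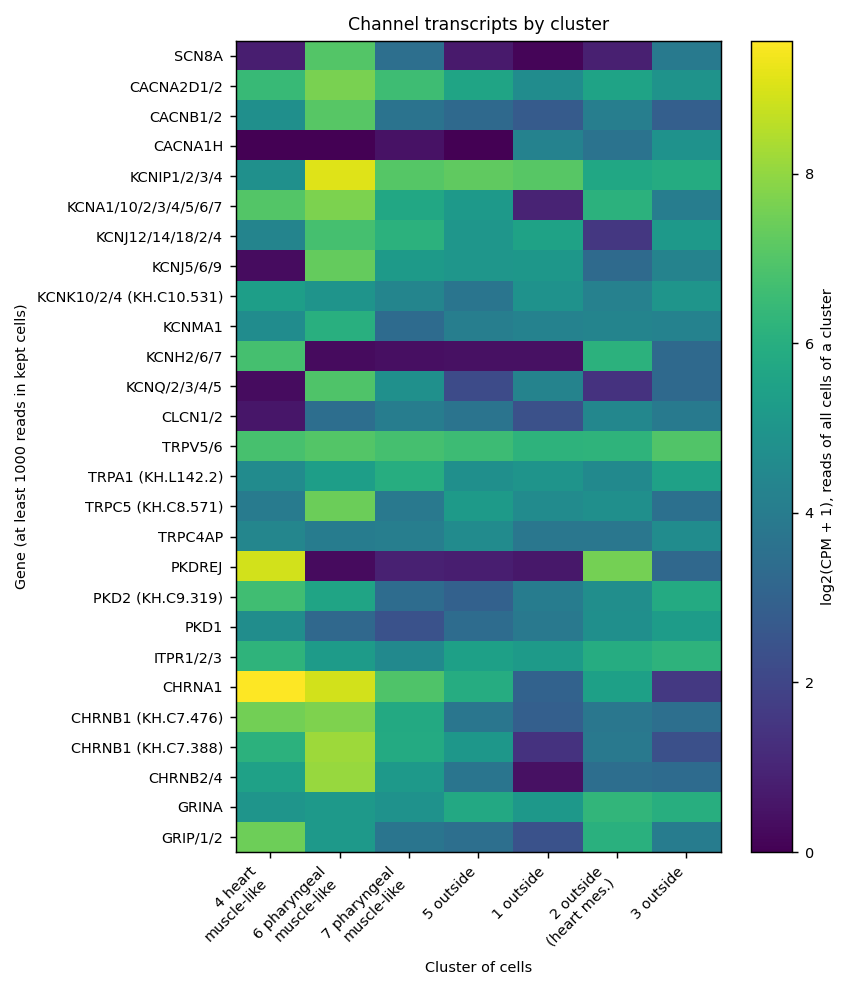
Level of 27 channel genes with at least 1000 reads in the 7 clusters, as log2(CPM + 1) over all cells of a cluster. Cluster 4 (heart muscle-like) and cluster 2 share PKDREJ, at 476 and 187 CPM, and KCNH2/6/7, at 106 and 70.4 CPM, which are near 0 in clusters 6 and 7 (pharyngeal muscle-like).

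Among outside cells, reads were summed per plate and cluster and each cluster was set against the mean of the other 3 outside clusters, with 10590 genes tested, 68 of them channel genes. In cluster 2, 5 channel genes passed, all higher, where 3.16% of all genes passed, 2.11% higher and 1.06% lower. Cluster 3 had 1 higher and 1 lower, where 5.17% of all genes passed, 4.94% higher and 0.236% lower, and cluster 1 had 1 lower, where 1.32% passed, 0.293% higher and 1.03% lower. In cluster 5 no channel gene passed in edgeR, where 1.01% of all genes did, 0.699% higher and 0.312% lower. At an unadjusted p under 0.05 edgeR gave 10 of them, and DESeq2's Wald test called 4. The channel genes' shares were 7.35% in cluster 2, 2.94% in cluster 3 and 1.47% in cluster 1. The median log2 difference of the channel genes was 0.80 in cluster 2, 0.82 in cluster 3, −0.52 in cluster 5 and −1.40 in cluster 1, beside −0.05, 0.52, −0.38 and −0.09 over all tested genes. With genes at 0 reads on one side placed at their bound, the medians of clusters 5 and 1 were −0.48 and −1.27 and the others did not move. Leaving out plate 4 or plate 5 reduced the sum of calls over the 4 clusters, 8 in all, to 4 and 5. Each cluster serves as background for the other 3, so these comparisons share sums.

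The 5 genes that passed in cluster 2 were PKDREJ, KCNH2/6/7, KCNA1/10/2/3/4/5/6/7, GRIP/1/2 and CHRNA1. PKDREJ had 116, 75.9, 146 and 266 CPM in the cluster 2 sums of plates 3, 4, 5 and 7, against 0 to 1.76 CPM in the sums of the other outside clusters, a log2 difference of 7.70 ± 0.83 (SE, edgeR adjusted p = 2.74e-10). KCNH2/6/7 had 134, 58.4, 55.4 and 72.0 CPM in cluster 2, against 0 to 10.7 CPM in the others, a difference of 6.53 ± 1.2 (log2, SE, edgeR adjusted p = 0.000118). Both passed under every alternative run. The Shaker-type gene KCNA1/10/2/3/4/5/6/7 had 167, 59.5, 27.4 and 64.0 CPM in cluster 2 and differed by 3.21 ± 0.72 (log2, SE, edgeR adjusted p = 0.00249), but not without plate 4, at an edgeR adjusted p of 0.0984. GRIP/1/2 had 176, 69.7, 81.2 and 62.3 CPM in cluster 2, against 0 to 27.7 CPM in the others, and differed by 3.13 ± 0.86 (log2, SE, edgeR adjusted p = 0.0226), but not without plate 3 or 4, at 0.0900 and 0.134. CHRNA1 had 13.9, 63.8, 81.2 and 30.8 CPM in cluster 2, which overlapped with the 5.95 to 99.2 CPM of cluster 5, and its difference of 2.34 ± 0.58 (log2, SE, edgeR adjusted p = 0.00891) did not pass without plate 5, at 0.361.

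Heart muscle transcripts in cluster 2 are a measured neighbour of these levels. Of its 75 cells, 11 had no read of the heart muscle markers MYH1/2 and TPM1/2 (KH.C3.661). Among those 11 cells, 3 had PKDREJ reads, 4 KCNH2/6/7 reads, 6 KCNA1/10/2/3/4/5/6/7 reads, 3 GRIP/1/2 reads and 2 CHRNA1 reads, and their pooled levels were 60.2, 143, 90.2, 92.0 and 33.6 CPM in that order. KCNN1/2/3, named after small calcium-activated channels, had 0 reads in cluster 2 and 146, 230 and 50 reads in clusters 5, 1 and 3, and the fitted difference did not pass at an edgeR adjusted p of 0.0688.

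Cluster 3 had less of the muscle receptor gene CHRNA1 than the mean of the other outside clusters, with 5.16, 1.203 and 0 CPM on plates 4, 5 and 6. The difference was −3.61 ± 0.97 (log2, SE, edgeR adjusted p = 0.0183), but did not pass without plate 4 or 5, at 0.0691 and 0.227. It also did not pass with adjustment over genes not used for clustering (0.0789), at least 3 cells per sum (0.162) or thinned cells (0.135). Low CHRNA1 was shared with cluster 1, at 7.49, 12.6, 1.37, 0 and 13.9 CPM on plates 3 to 7. CACNA1H had 24.9, 29.4 and 26.8 CPM in cluster 3 and SCN8A 0.287, 15.4 and 46.6 CPM, and neither difference passed, at edgeR adjusted p-values of 0.122 and 0.0656. The marker sums of cluster 3 were 653 CPM for 7 neural genes, 1580 CPM for 43 ciliated-cell genes and 1087 CPM for 4 gut genes, against 263, 599 and 414 CPM over all outside cells, and their part in these results was not tested.

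In cluster 1, the EBF-positive cells with the fewest sarcomere transcripts, the 1 channel gene that passed was lower. KCNA1/10/2/3/4/5/6/7 had 2.497, 1.05, 0.855, 0 and 0.220 CPM in the cluster 1 sums of plates 3 to 7, below every sum of the other outside clusters, at −5.33 ± 0.85 (log2, SE, edgeR adjusted p = 2.16e-05), and it passed under every alternative run. CHRNB2/4 had at most 0.628 CPM in these sums, and its difference of −4.00 (log2) did not pass at an edgeR adjusted p of 0.0771. In the EBF-positive cluster 5, which also carried the 6012 CPM of sarcomere markers, CHRNA1 had 5.95, 99.2 and 26.4 CPM on plates 3, 4 and 5, and it was the highest of the outside clusters on plate 4 alone. Its difference of 2.13 ± 0.62 (log2, SE) did not pass at an edgeR adjusted p of 0.0854, and the part of the sarcomere transcripts was not tested.

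**Figure D5:**
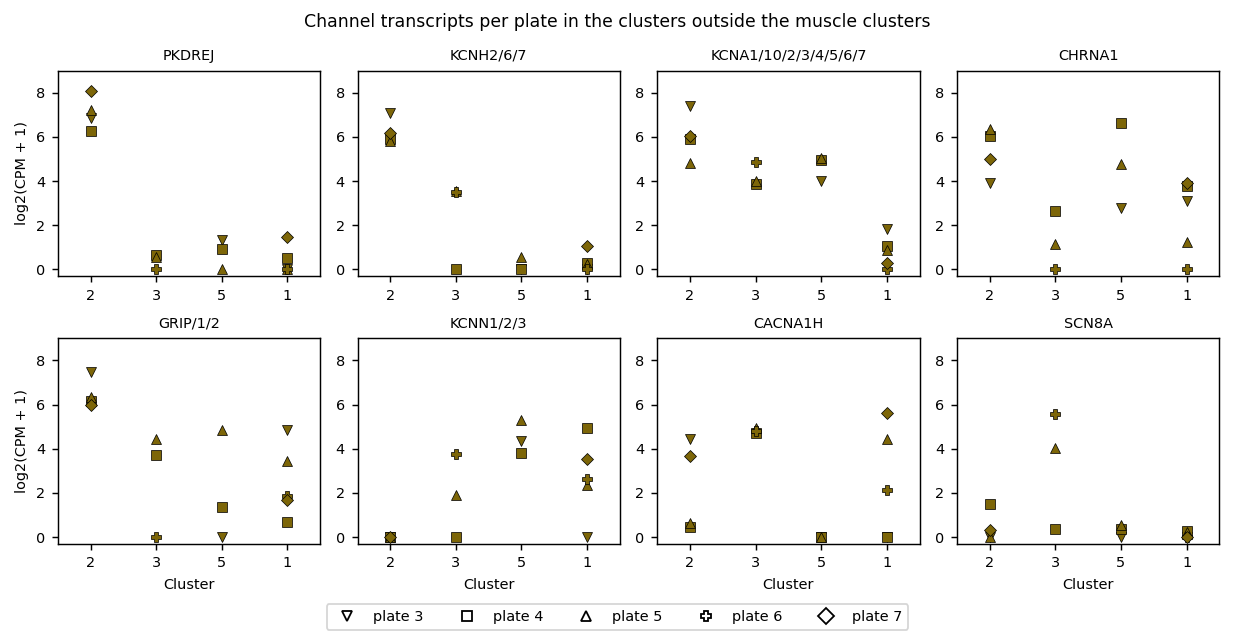
Level, as log2(CPM + 1), of 8 channel genes in each plate sum of the outside clusters 2, 3, 5 and 1. PKDREJ and KCNH2/6/7 stood at 55.4 CPM or more in every sum of cluster 2, while KCNA1/10/2/3/4/5/6/7 stood at 2.497 CPM or less in every sum of cluster 1.

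The genes whose level over the 23 plate-by-cluster sums most resembled that of a channel gene that passed were named by Pearson's r on log2 CPM, among genes that carry a name in the table. This is a description, since the sums share plates, depth and cell classes. CHRNA1 most resembled the myosin light chain MYL1/3/4/6 (r = 0.906) and titin (TTN, KH.C9.208; r = 0.891). CHRNB1 (KH.C7.388) most resembled leiomodin (LMOD1/3; r = 0.924), and CHRNB1 (KH.C7.476) the Z-disc gene PDLIM1/2/3/4/7 (r = 0.877) and the ryanodine receptor RYR1/2/3 (r = 0.867). PKDREJ was nearest to the sphingosine phosphate receptor S1PR1/2/3/4/5 (KH.C2.935; r = 0.958), and KCNH2/6/7 to CG32702 (KH.C1.953; r = 0.968) and ADAMTS10/6 (r = 0.964). GRIP/1/2 was nearest to TPM1/2 (KH.C3.661; r = 0.830). KCNJ5/6/9 was nearest to GON4L (r = 0.790), followed by KCNIP1/2/3/4 (r = 0.778) and the Z-disc gene LDB3 (r = 0.770).

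Other genes of membrane excitability and calcium handling, 38 by name, were counted in the same fit, and 28 were tested in the class comparisons. Among them, CASQ1/2 was a heart muscle marker and SLC8A1/2/3 a pharyngeal muscle marker when the clusters were named. Their class differences were therefore in part fixed beforehand and are no independent result, though they enter the counts below. In heart muscle-like cells against outside cells 4 were higher and 1 lower, with a median log2 difference of −0.47, where 3.96% of all genes passed with a median of −1.18. The higher ones were the calcium store genes CASQ1/2 at 6.13 ± 0.66, RYR1/2/3 at 4.93 ± 0.60, JPH1/2/3 at 4.38 ± 0.84 and ATP2A1/2 (KH.L116.40) at 3.40 ± 0.58 (log2, SE). In pharyngeal muscle-like cells against outside cells 7 passed, all higher, with a median of 1.29, where 2.37% of all genes passed with a median of −0.45. They were the same calcium store genes with the sodium-calcium exchanger SLC8A1/2/3, the calcium pump ATP2B1/2/3/4 and CACNA1C. In heart muscle-like against pharyngeal muscle-like cells 1 was higher and 4 lower, with a median of −1.41, where 6.36% of all genes passed with a median of −0.70. CASQ1/2 was higher by 3.45 ± 0.67, and ATP2B1/2/3/4 at −2.89 ± 0.74, ANO1/3/4/5/6/7 at −5.30 ± 1.47 and SLC8A1/2/3 at −4.38 ± 0.58 (log2, SE) were lower. The fourth, AGRN, named after the organiser of the vertebrate neuromuscular junction, had 0 reads in heart muscle-like sums, 842 in pharyngeal muscle-like sums and 1454 in outside sums. Over the outside clusters, 34 of these genes were tested, and those that passed were 2 higher and 1 lower in cluster 2, 1 lower in cluster 3 and 2 lower in cluster 1, where 3.16%, 5.17% and 1.32% of all genes passed in that order.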

How the data were processed

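SMART-seq2 libraries on 7 plates, with 96 barcodes each, were deposited as 1 table of unnormalised read counts, a row for each gene model and a column for each barcode. Reads had been split by cell barcode and the second read aligned with TopHat, per the file headers, and counted with featureCounts, per the submitters' processing notes. Versions, build, strand setting and filters are not given in the sources used here. Since counts are of reads, not of molecules, intervals and floors cover counting error only. None of the 94 gene model IDs matched the RefSeq gene table, so no coordinates or sequences are given. Where the counting could not separate near-identical genes, such as the copies that share a name, their split is uncertain.

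Barcodes with reads in at least 1000 genes were kept, which gave 315 cells where the design text counts 386. For clustering, each cell was brought to a total of 10000 and log-transformed, and 2000 variable genes, 20 components, 15 neighbours and Leiden resolution 0.8 (scanpy 1.11.5) gave the clusters, with the 96 genes that matched the naming rule left out. Clusters were named from marker lists. No doublet caller was run. Reads were summed per plate and class, or plate and cluster, over at least 5 cells and on plates with at least 2 such sums, which gave 11 and 23 sums, and levels are CPM of those sums. edgeR 4.0.16 (glmQLFit and glmQLFTest, TMM, filterByExpr, plate as a block) tested all genes in R 4.3.3. The class fit left 5 residual degrees of freedom beside 18.1 prior ones, so each gene's spread was largely borrowed from the other genes. Ratios with 1 to 3 reads on one side carry exact 95% binomial counting intervals, and the floor is 3 reads. A script with the same steps was tested on simulated data. Alternatives were DESeq2 1.42.0, no filter, no block, each plate left out, cells thinned to 20000 reads, other clusterings and other makeups of the classes.

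The genes named are those that passed in a comparison, the 2 members of each family with most reads, up to 5 further genes per comparison with the smallest unadjusted p under 0.05, and, as a description, the genes most like each one that passed. Other members are named for context, and some that the rule takes are not reported here. The members, marker lists and gene lists were chosen with earlier results of these data known.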

Additional observations from a re-analysis of the deposited data

Results flagged for a closer look

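In 14 of 64 groups of 4 plate sums, 1 value stood apart from the other 3 by Dixon's criterion, where chance gives about 1 in 20. A gene with reads on 1 plate and 0 on the other 3 always stands apart, so sparse genes fill much of this number. Among genes with reads on most plates, CHRNB1 (KH.C7.476) and CHRNB2/4 were lowest on plate 7 in pharyngeal muscle-like cells, at 60.5 CPM against 106 to 111 CPM and at 65.6 CPM against 119 to 127 CPM. PKDREJ and KCNH2/6/7 were highest on plate 7 in outside cells, at 156 CPM against 0 to 15.1 CPM and at 40.1 CPM against 7.94 to 11.3 CPM. Cluster 2 made up 28 of the 48 outside cells on that plate, against 2 of 13, 18 of 63 and 13 of 62 on plates 2, 4 and 5. SCN8A was highest on plate 5 in outside cells, at 8.16 CPM against 0.353 to 0.794 CPM, and GABRR1/2/3 (KH.S781.3) on plate 5 in pharyngeal muscle-like cells, at 49.5 CPM against 0 to 6.25 CPM.

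The remaining values that stood apart belong to genes at 0 on the other 3 plates. In pharyngeal muscle-like cells they were GABRD at 0.255 CPM on plate 5, GRID2IP at 0.439 CPM and KCNQ1 at 0.219 CPM on plate 4, and KCNMB1/2/3/4 at 0.453 CPM and KCNT1/2 at 0.906 CPM on plate 2. In outside cells they were GABRD at 17.5 CPM and GRIA2 at 8.83 CPM on plate 5, and KCNMB1/2/3/4 at 1.54 CPM on plate 4.

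Since both muscle classes were set against the same outside cells, the heart muscle-like minus pharyngeal muscle-like difference is the test of whether their differences from outside cells were unequal. It passed for PKDREJ (9.01), KCNH2/6/7 (7.91), KCNJ5/6/9 (−7.96), KCNIP1/2/3/4 (−4.37), KCNQ/2/3/4/5 (−7.25), SCN8A (−5.70) and GRIP/1/2 (3.02), all as log2 differences.

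Channel reads were also present in barcodes that no comparison used. The 72 barcodes with at least 200 but fewer than 1000 genes held 1949 channel reads of 1511810, or 1289 CPM, over 40 channel genes, beside 1232 CPM in kept cells. The 285 barcodes with under 200 genes held 11.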

How the results depend on the processing

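Over the alternatives run, results for single genes that passed kept both direction and call in 391 cases, lost the call in 75 and turned in none; of those that had not passed, 436 kept their side, 67 came to pass and GRID2IP in cluster 2 turned to −0.10 (log2) with cells of 2000 or more genes. Counts of channel genes that passed in heart muscle-like against outside cells were 5 of 48 tested, and 14 of 48 with DESeq2's Wald test. They were 3 of 20 with thinned cells and 3 of 69 with cells of 2000 or more genes. Without cluster 2 the count was 9 of 47, and with each plate left out it was 3 to 5. In pharyngeal muscle-like against outside cells the count was 8 of 48, and 2 of 44 with cluster 7 alone and 6 to 8 with each plate left out. Between the muscle classes it was 7 of 48, and 16 of 48 with DESeq2's Wald test. It was 3 of 69 with cells of 2000 or more genes, 3 of 44 with cluster 7 alone and 4 to 9 with each plate left out. Over the outside clusters it was 8, and 26 with DESeq2's Wald test, 5 with thinned cells and 4 to 9 with each plate left out. Each cluster there had 68 channel genes tested, or 27 with thinned cells. The cause of these shifts was not tested. All-gene shares under the alternatives are not given here, so these counts alone do not set channel genes apart from other genes.

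Plates are shared between classes, so the block on the plate is the main fit; with no replicate block the counts were 5, 8, 11 and 19 in the same order, and PKDREJ in heart muscle-like and SCN8A in pharyngeal muscle-like cells lost their calls against outside cells, at edgeR adjusted p-values of 0.0872 and 0.0602. With thinned cells CHRNA1 in cluster 2 stood at 0.57 (log2), and KCNH2/6/7 in pharyngeal muscle-like cells lost its call against outside cells at 0.0723. With cluster 7 alone, SCN8A stood at 1.92 (log2) against outside cells and heart muscle-like minus pharyngeal muscle-like cells at −2.71. Cells of 2000 or more genes ended KCNIP1/2/3/4 between the muscle classes at 0.326, and clustering with the channel genes kept ended PKDREJ in pharyngeal muscle-like against outside cells at 0.214.

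Plates 3, 6 and 8 had too few muscle cells for class sums, and their outside cells entered no class comparison. Heart muscle-like sums rest on 7 to 13 cells each, and the class on 4096971 reads, so a count of 0 there allows up to 0.732 CPM, or 3 reads. Genes found in under 10 cells, such as GRIA2, rest on those cells.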
